A study of Arabidopsis thaliana with 39 samples.

Results

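The stretch described here is the part of the binary vector pROK2 that lies outside the left T-DNA border, position 1 to 6112 of the deposited plasmid sequence. During Agrobacterium transformation only the T-DNA between the borders is meant to enter the plant genome, so small RNA from this stretch has vector backbone as its template. A read of the small RNA table belonged to it when its midpoint lay at 1 to 6112 and its sequence equalled the plasmid there. Of the 25606 small RNA reads placed on pROK2, 21957 equalled the plasmid, and 7739 of these lay on the left backbone. The left border repeat of 25 bp starts at 6113, the T-DNA runs from there to 10430 at the end of the right border repeat, and the right backbone from 10431 to 12883.

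The reads came from 1 small RNA library of rosette leaves of the Arabidopsis thaliana T-DNA insertion line SALK_059379, in the Col-0 background with no treatment named in the labels. RNA was taken from pools of segregating plants, and the mapped reads of a pair of sequencing lanes stand together in the deposited table. With 1 library there was no replicate, and all intervals are 95% intervals that cover counting error only (exact Poisson for counts, exact Clopper-Pearson for shares). PCR copies of one molecule count as several reads, so densities are also given with identical reads counted once. Small RNA of plants without the insertion was not analysed here, and the number of backbone copies in the genome was not corrected for.

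Plants cut double-stranded RNA into small interfering RNAs (siRNAs) with Dicer-like enzymes of set product lengths. DCL4 makes 21 nt and DCL2 makes 22 nt siRNAs, both known for silencing transgene and viral transcripts after transcription. DCL3 makes 24 nt siRNAs, which guide AGO4-type Argonautes to chromatin in RNA-directed DNA methylation and are the usual class at transposons and repeats. The base at the 5′ end helps to sort a siRNA to its Argonaute, AGO4 being known for a preference for A and AGO1 for U.

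The left backbone gave rise to siRNA-sized reads of both strands along nearly its whole length. It held 1266 reads per kb (1238 to 1295), and 477 distinct reads per kb with identical reads counted once. Of the 7739 reads, 91.5% were 21 to 24 nt long. The 24 nt class was the most frequent with 3535 reads, followed by 22 nt with 1667, 21 nt with 1081 and 23 nt with 800. Among reads of 21 to 24 nt these were shares of 49.9% (48.7 to 51.1), 23.5%, 15.3% and 11.3%. Only 351 reads were shorter than 21 nt and 305 longer than 24 nt. No more than 74 of the 6112 bases carried no read, and the longest run of them was 11 nt (3356 to 3366).

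One base of the stretch limits what the rule could count. All 732 small RNA reads that were placed across position 2018 carried the same difference from the deposited sequence, C2018A (the plasmid's base first, counted from 1 at the start of the deposited sequence on its plus strand, then the base of the reads). None of them therefore equalled the plasmid. Among them was a single plus strand 24 nt read, 2003 to 2026, that occurred 572 times (526 to 621), more often than any read that met the rule. In the RNA-seq library of the same line, 1 piece held the changed base with 8 flanking bases on each side and 0 pieces held the deposited one. No other base of the left backbone with 10 or more reads across it differed from the deposited sequence in most of its reads. With this base changed in the plasmid, 731 reads more met the rule and the stretch held 8470 reads. Values with these reads are given beside the main results below as values with the changed base, and whether the deposited base or the inserted DNA differs was not tested.

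Density along the stretch was followed in 250 nt windows counted from the left border outward, 24 full windows and a last one of 112 nt. Backbone siRNAs were sparser in most windows near the border than in those far from it. Windows at 501 to 750 nt (1560 reads per kb) and 1251 to 1500 nt (1216) went against this. Among copies they exceeded, for example, the window at 5251 to 5500 nt (1020). With identical reads counted once they did not, at 384 and 436 distinct reads per kb beside 544 in that window. The window next to the border held 130 reads, or 520 reads per kb (434 to 617). The lowest windows all lay in the nearest 3 kb, namely those at 2501 to 2750 nt (360 reads per kb), 1751 to 2000 nt (372) and 751 to 1000 nt (388). Their intervals overlapped, with the highest bound at 473 reads per kb, so that their order is not resolved at this depth. The highest windows were neighbours at 4251 to 4500 nt (3248 reads per kb, 3028 to 3479), 4001 to 4250 nt (2896, 2689 to 3115) and 4501 to 4750 nt (2824, 2620 to 3040), and their intervals overlapped as well. The window at 4001 to 4250 nt contains the changed base. Only 46.2% of its placed reads equalled the plasmid, against 79.7% to 95.6% in the other full windows, and it stood at 5820 reads per kb with the base changed, which made it the highest of all.

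**Figure D1:**
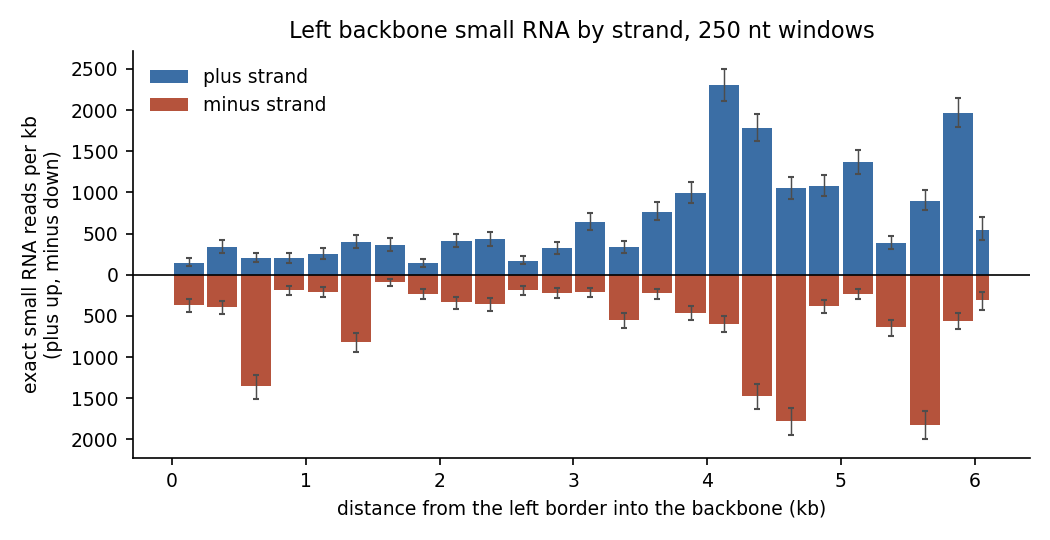
Exact small RNA reads per kb of the left backbone in 250 nt windows (last window 112 nt), against the distance from the left border in kb. Plus strand reads are drawn upward, minus strand reads downward, and bars on each column are exact Poisson 95% intervals. The tallest columns of each strand lie beyond 4 kb, though not all columns there are tall. The strand that holds more reads changes several times along the stretch.

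In blocks of 1000 nt from the border outward, the left backbone held 798 (744 to 855), 623 (575 to 674) and 606 (559 to 656) reads per kb. The next blocks held 1044 (982 to 1109), 2607 (2508 to 2709) and 1966 (1880 to 2055), and the last 112 nt 848 (686 to 1037). Among copies, density thus did not rise evenly, since the block next to the border exceeded the 2 that follow it. With identical reads counted once these blocks were close together, at 304, 291 and 301 distinct reads per kb. Over the 24 full windows, density and distance from the border had a Spearman rho of 0.68, of 0.68 with the changed base, and of 0.78 with identical reads counted once. Neighbouring windows of 1 library share their plants and their templates, so rho describes this library and carries no p. Window density also went with base composition, with a rho of -0.46 against GC content, and the part of GC content in the pattern was not tested.

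The size classes did not share this pattern equally. Beyond 3 kb, a split set after the windows were seen, 24 nt reads went from 232 to 913 reads per kb, 3.94 times as many. The 23 nt reads went from 31.0 to 227 reads per kb, 7.33 times as many. For the 22 nt and 21 nt reads the ratios were only 1.58 and 1.25. Counting identical reads once, the ratios were 2.71 for 24 nt, 4.31 for 23 nt, 1.46 for 22 nt and 1.27 for 21 nt, so the order of the size classes was kept. The ratio with the changed base was 4.82 for 24 nt and 7.75 for 23 nt reads, and 1.28 for 21 nt.

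The make-up of the siRNAs therefore differed along the backbone. In the block of 2001 to 3000 nt from the border, 32.4% (28.6 to 36.5) of the reads of 21 to 24 nt were 24 nt long, 34.2% were 22 nt and 29.4% (25.6 to 33.4) were 21 nt. In the block of 4001 to 5000 nt, 57.6% (55.6 to 59.6) were 24 nt and 9.67% (8.52 to 10.9) were 21 nt, and none of these intervals overlapped with its counterpart nearer the border. Among distinct reads the 24 nt share was 28.4% (23.05 to 34.3) and 42.0% (38.1 to 45.9) in the same blocks. The block of 2001 to 3000 nt had the lowest 24 nt share of all blocks. Among copies, the block next to the border was at 40.4% (36.9 to 44.0), and that of 3001 to 4000 nt at 41.5% (38.3 to 44.7). The 24 nt share of copies thus did not rise evenly from the border. Among distinct reads it was 30.9% (25.4 to 36.9) at 1 to 1000 nt and the same at 1001 to 2000 nt. These intervals overlapped with that at 2001 to 3000 nt. Single windows ranged from a 24 nt share of 27.2% (20.7 to 34.6) at 251 to 500 nt to 68.9% (65.4 to 72.2) at 4251 to 4500 nt. The highest share with the changed base was 74.3%, at 4001 to 4250 nt. The 24 nt class was the most frequent one in 16 of the 24 full windows, with or without that change. Across the full windows the 24 nt share had a rho of 0.69 with distance, and the shares of 22 nt and 21 nt reads had -0.67 each. GC content had a rho of only -0.12 with the 24 nt share.

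**Figure D2:**
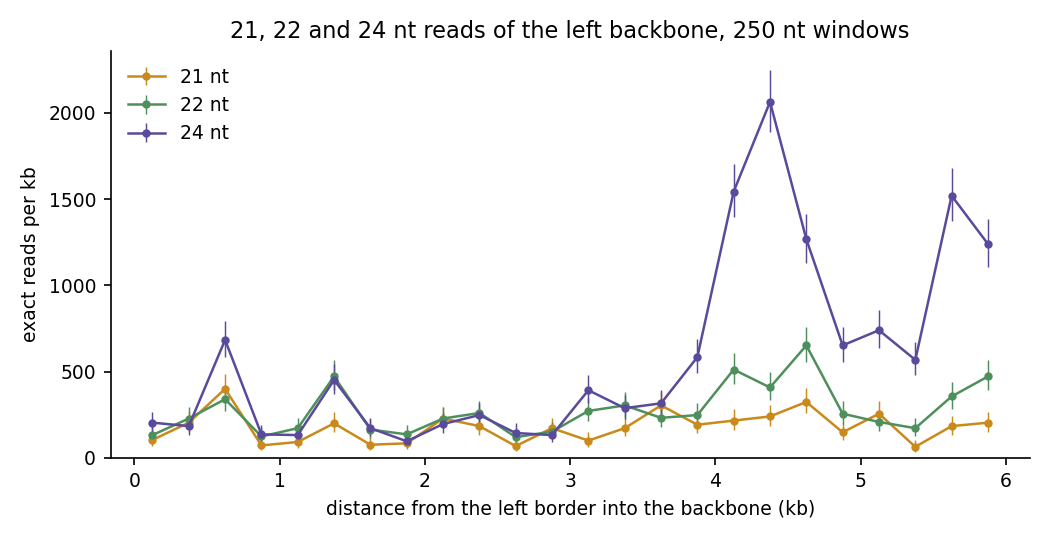
Reads per kb of 21, 22 and 24 nt in the 24 full windows of the left backbone, against the distance from the left border in kb, with exact Poisson 95% intervals. The 3 lines run close together in most windows up to 3 kb, whereas the 24 nt line lies above both others in every window beyond 3.75 kb.

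The highest window also depended on the size class. It lay at 4251 to 4500 nt for 24 nt reads (516 reads), at 4501 to 4750 nt for 22 nt (163) and at 501 to 750 nt for 21 nt (100). Of the 516, 220 were copies of the read at 1622 to 1645. The window at 4001 to 4250 nt held 386 reads of 24 nt. With the changed base it gained 633 more, which made it the highest for 24 nt. Over the 24 full windows the counts of 22 and 24 nt reads had a rho of 0.80, those of 21 and 22 nt 0.66 and those of 21 and 24 nt 0.60. The classes shared part of their single ends. Of the 505 combinations of position and strand at which a 21 nt read began, 90 (17.8%) were also the start of a 24 nt read, which is 9.88% of the 911 starts of 24 nt reads. Of the 672 starts of 22 nt reads, 121 (18.0%) were also starts of 24 nt reads, or 13.3% of the latter. The 21 and 22 nt classes shared 90 starts, 17.8% of those of 21 nt and 13.4% of those of 22 nt reads. Starts of 24 nt reads took up 911 of the 12224 possible combinations. Whether the sharing went beyond the level of such counts was not tested.

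Over the whole stretch the strands were almost balanced, while single windows were not. The plus strand held 4291 reads and the minus strand 3448, a plus share of 55.4% (54.3 to 56.6), which was 59.2% with the changed base. The plus share was 51.7% (48.7 to 54.7) for 21 nt reads, 53.7% for 22 nt, 62.4% (58.9 to 65.7) for 23 nt and 56.4% for 24 nt. By window it ran from 13.1% (9.89 to 16.8) at 501 to 750 nt to 85.7% (81.9 to 89.0) at 5001 to 5250 nt, and with the changed base the window at 4001 to 4250 nt was the highest at 89.3%. The interval lay wholly above 50% in 10 full windows, wholly below it in 8, and held 50% in 6. Plus and minus counts of a window had a rho of 0.44.

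Single abundant reads occurred in windows of uneven strand and in nearly balanced ones. At 501 to 750 nt, 92 of the 390 reads began at the same base. At 4251 to 4500 nt the leading end held 27.2% of the reads, beside a plus share of 54.8%. The window at 5001 to 5250 nt, with a plus share of 85.7%, had 15.8% of its reads at its leading end. In the windows of the left backbone, the leading 5′ end held between 5.19% and 32.1% of the reads, with a median of 11.6%. The highest value belonged to the window at 3001 to 3250 nt, where 68 of 212 reads began at 2970 on the plus strand. The highest value with the changed base was 39.8%, at 4001 to 4250 nt.

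Reads piled up at few 5′ ends. They began at 2263 combinations of position and strand, 18.5% of the 12224 possible ones, and 1105 of these were seen once. As few as 219 ends (9.68%) held 50% of the reads. The 10 most frequent ends held 944 reads, or 12.2% (11.5 to 12.9), and 8 of them lay more than 3 kb from the border. With the changed base, the 10 leading ends held 17.4%. On the T-DNA the 10 leading ends held 15.9% of the reads and on the right backbone 12.6%. Piling was thus not particular to the left backbone.

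Among the reads that met the rule, the leading end was 1622 on the plus strand with 221 reads (193 to 252), 220 of them the same 24 nt read at 1622 to 1645, which made up 6.22% of all 24 nt reads. It was followed by 1921 plus with 128 reads and 457 minus with 115, whose main reads were also 24 nt long (1921 to 1944 and 434 to 457). The only leading ends in the nearest 3 kb were 5586 minus with 92 reads, all of 24 nt, and 4786 minus with 53 reads, 42 of them of 22 nt. The other 5 lay at 1563 (73 reads), 2970 (68), 1561 (67), 465 (64) and 1011 (63), all on the plus strand. Neighbours in this order mostly overlapped in their intervals, while the leading end stood clear of the one after it, whose upper bound was 152.

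Length was fixed at most of these ends. In each of the 10, at least 79.2% of the reads had a single length, and in 5 of them over 98%. The most frequent 22 nt read, 1563 to 1584 on the plus strand with 69 copies (53.7 to 87.3), ended at the same base as the main 24 nt read of the end at 1561. The most frequent 21 nt read was 5569 to 5589 on the minus strand with 44 copies (32.0 to 59.1), overlapping the 24 nt pile at 5563 to 5586. Copies per distinct read were highest in the 24 nt class, at 3.88 against 2.48 for 22 nt and 2.14 for 21 nt.

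**Figure D3:**
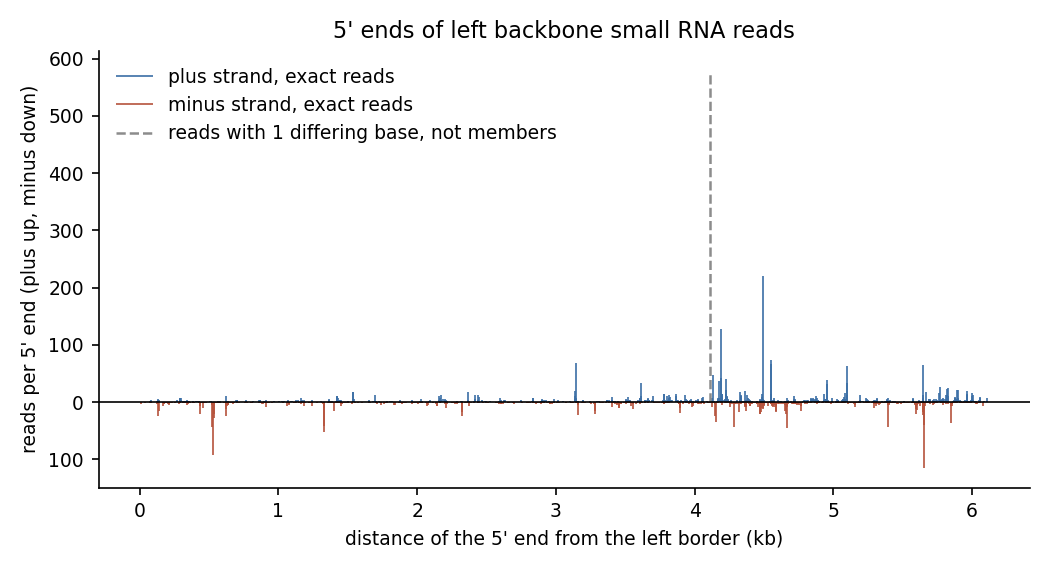
Reads per 5′ end on the left backbone against the distance of that end from the left border in kb, plus strand upward and minus strand downward. The dashed line marks the 579 reads beginning at 2003 with 1 base that differs from the deposited plasmid, which the rule left out. It is taller than the leading end among members, which held 221 reads.

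Dicer products leave a duplex in which each strand overhangs the other by 2 nt at its 3′ end. Such a partner, of the same length and on the other strand, was present for 485 of the 6283 reads of 21, 22 and 24 nt, or 7.72% (7.07 to 8.41). At the 24 other offsets from -12 to 12 nt the share ranged from 4.73% to 11.3% with a median of 8.37%, and 14 of them exceeded the overhang offset. By length the partner share was 3.42% for 21 nt, 5.46% for 22 nt and 10.1% for 24 nt, against medians of 3.15%, 4.14% and 11.4% at the other offsets. Among read copies, partners with 2 nt overhangs were thus no more frequent than reads at many other offsets on the other strand.

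With identical reads counted once, the overhang offset ranked first. It held 7.66% (6.56 to 8.89) of the 2088 distinct reads, beside 4.98% to 7.57% at the other offsets, and its interval contained the upper end of that range. With the changed base it was 7.68%, 1 other offset was higher at 7.77%, and the first rank was lost. Distinct reads of the T-DNA had a partner at this offset in 14.8% (13.5 to 16.2) of cases, beside 8.41% to 12.5% at the other offsets. None of the main reads of the 10 leading ends had a partner with 2 nt overhangs in the library. A partner of any length from 21 to 24 nt was also accepted, with the 2 nt overhang required only at the 3′ end of the read itself. The share was then 21.0% (20.1 to 21.99). It was not counted at other offsets, so whether it exceeds their level is not known.

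**Figure D4:**
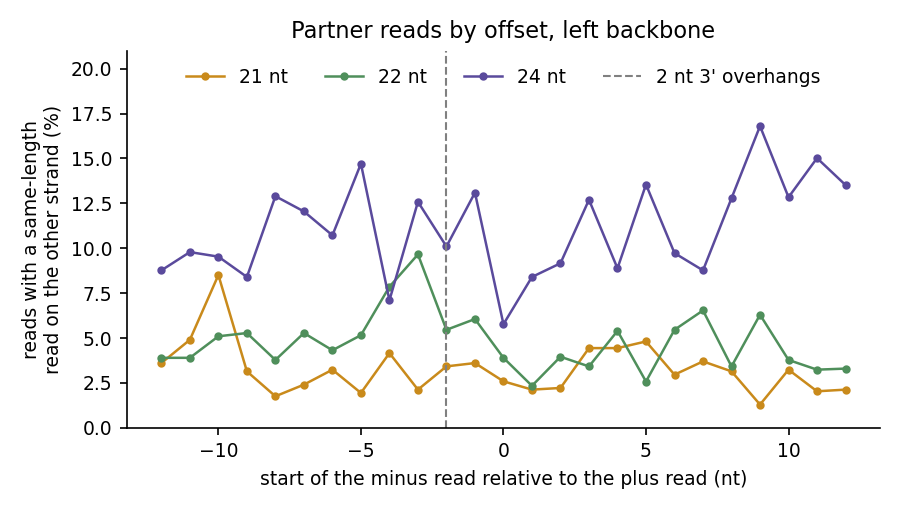
Share of left backbone reads, in percent, with a read of the same length on the other strand, against the start of the minus read relative to the plus read in nt. Lines show 21, 22 and 24 nt reads, and the dashed line the offset of -2 nt that leaves 2 nt 3′ overhangs, where the 24 nt line is at 10.1% and no line has its highest point.

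The first base of the reads differed from their remaining bases. In 24 nt reads, A stood at the 5′ end in 32.4% (30.8 to 33.9), beside 25.2% of the other positions, and G in only 15.2% (14.1 to 16.4) beside 30.4%. C followed with 29.2%, and U with 23.2%. Counting distinct 24 nt reads, A was at 35.3% (32.2 to 38.5). The read at 2003 to 2026, which the rule left out, begins with G. With the changed base, A therefore stood at 27.7% of 24 nt copies (26.3 to 29.0), beside 28.0% of their other positions, and G at 27.7% beside 30.3%, so that the surplus of A was lost. Among distinct 24 nt reads it was kept, with A at 35.2% (32.1 to 38.3) beside 24.2%, and G at 17.4% beside 30.02%. Reads of 21 nt had A at 33.6% and U at 28.6% (25.9 to 31.4), and 22 nt reads had A at 29.1% and U at 27.1%. This lead of A was not kept among distinct reads. There the 21 nt class had U at 28.3% (24.4 to 32.5) and A at 25.3% (21.6 to 29.4). The 22 nt class had C at 29.3% (25.9 to 32.9) and A at 25.9% (22.6 to 29.4). The intervals overlapped within each class, so the order of these bases is not resolved. G was below its share at the other positions in these classes too. Among copies the T-DNA differed in its shorter classes, where U opened 47.1% (45.2 to 49.0) of 21 nt and 40.5% of 22 nt reads. Distinct reads of the T-DNA were not counted for this measure. In 24 nt copies, A opened 38.1% (36.6 to 39.5) on the T-DNA and 42.7% (39.1 to 46.3) on the right backbone. A frequent 5′ A was thus not particular to the left backbone.

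The deposited plasmid carries no annotation, and coding potential was read from its sequence alone. In all, 6 frames of 150 or more codons from ATG to stop lay in the left backbone. The frame at 1332 to 1835 on the minus strand (167 codons) was the densest, with 3087 reads per kb (2936 to 3245), 54.4% of them sense. The frame at 417 to 929, also minus (170 codons), held 1805 reads per kb, 65.4% (62.3 to 68.5) sense, and had the highest 24 nt share at 63.5%. The frame at 2276 to 3070 on the plus strand (264 codons) held 1023 reads per kb and was 67.9% (64.6 to 71.1) sense. Its protein aligned with that of nptII, the kanamycin resistance gene of the T-DNA, over 251 columns with 31.5% identity, and no read of the left backbone matched the plasmid at more than 1 place.

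The frames nearer the border were covered more thinly. The plus strand frame at 4772 to 5683 (303 codons) held 882 reads per kb and stood out by its strand, since only 21.5% (18.7 to 24.5) of its reads were sense. The frames at 3369 to 4517 on the plus strand (382 codons) and 3311 to 3898 on the minus strand (195 codons) overlap, and their reads are in part the same. They held 534 and 531 reads per kb, with sense shares of 53.1% and 50.3%, and 24 nt shares of 33.6% and 35.5%. Bases in frames and bases outside them were then compared at like distance. In the nearest 3 kb, bases in frames held 671 reads per kb (637 to 707) and those outside 687 (633 to 744). Beyond 3 kb the values were 1818 (1757 to 1882) in frames and 1859 (1786 to 1935) outside, and the intervals overlapped in both stretches.

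Compared with the T-DNA, the left backbone was less densely covered. It held 0.44 times as many reads per kb (0.426 to 0.451), and 0.53 times as many distinct reads (0.502 to 0.553). The nearest 3 kb reached 0.23 of the T-DNA density and the rest 0.64. The ranges of the windows overlapped, although 17 of 17 T-DNA windows lay above the left backbone median. Left backbone windows ranged from 360 to 3248 reads per kb with a median of 938, T-DNA windows from 1372 to 8468 with a median of 2384, and 13 of 17 T-DNA windows fell within the left backbone range. With the changed base the left backbone had 0.48 times the T-DNA density, its windows reached 5820 reads per kb, and 16 of 17 T-DNA windows fell within their range. Across the border itself density rose from 520 (434 to 617) in the backbone window next to it to 2748 reads per kb in the first 250 nt of the T-DNA.

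Over the whole stretch, the deficit was smaller for 24 nt reads than for 21 nt reads. Left backbone density was 0.57 (0.545 to 0.596) of that of the T-DNA for 24 nt reads, 0.33 for 22 nt and 0.28 (0.258 to 0.297) for 21 nt. The 24 nt share was accordingly 12.0 percentage points higher (10.6 to 13.5) on the left backbone than on the T-DNA, and 4.47 points higher (1.98 to 6.96) among distinct reads. The 24 nt ratio was 0.67 with the changed base and the difference in share 15.7 points. The nearest 3 kb did not show this order. It held 232 reads per kb of 24 nt and 157 of 21 nt, beside 1014 and 639 on the T-DNA. Its blocks of 1000 nt had 24 nt shares of 40.4%, 36.2% and 32.4%, beside 37.9% on the T-DNA. Beyond 3 kb the left backbone held 913 reads per kb of 24 nt and 196 of 21 nt.

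Beside the right backbone, the left one was the denser over its whole length. The left backbone held 1.79 times as many reads per kb (1.69 to 1.88) and 1.46 times as many distinct reads. This excess lay beyond 3 kb, where the left backbone held 1835 reads per kb. Its nearest 3 kb held 676, beside 709 (676 to 743) over the 2453 nt of the right backbone. The 24 nt share was 2.73 percentage points higher on the left, with an interval of -0.000584 to 5.44, and the difference in plus share, left minus right, was -1.22 points (-3.78 to 1.37). These intervals contain 0 and do not show that the shares are alike. Among distinct reads the difference in 24 nt share turned to -2.81 points (-7.00 to 1.30). With the changed base it was 6.36 points (3.66 to 9.05), and the difference in plus share turned to 2.55 points (0.0154 to 5.12), so that no direction can be read from either share. Windows of the right backbone ranged from 220 to 1808 reads per kb, and 2 of 9 exceeded the left backbone median. The lowest left backbone window lay 2501 to 2750 nt from the left border. The right backbone held 220 reads per kb (166 to 286) in the first 250 nt beside its border. It held 248 (190 to 318) at 751 to 1000 nt, so its sparsest window is not resolved at this depth. On the circular plasmid its far end, at 522 reads per kb over the last 203 nt, adjoins the far end of the left backbone at 848.

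**Figure D5:**
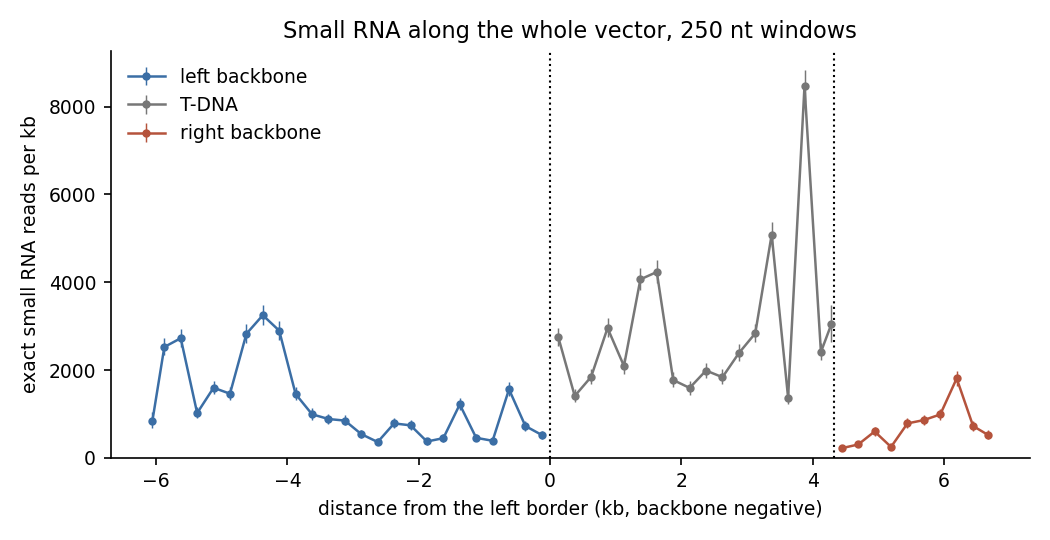
Exact small RNA reads per kb in 250 nt windows along the whole vector, against the distance from the left border in kb (left backbone negative), with exact Poisson 95% intervals and dotted lines at the T-DNA borders. The left backbone lies between 360 and 3248 reads per kb in its full windows, with its lowest windows within 3 kb of the border.

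RNA-seq of the same line was sparse over the whole vector. Of 125 aligned pieces in its table, 77 lay on the left backbone, of which 21 had 20 or more bases and 13 of these equalled the plasmid (6.92 to 22.2), or 2.13 pieces per kb (1.13 to 3.64), beside 2.78 (1.44 to 4.85) on the T-DNA. Of the 13, 12 were on the plus strand, 5 lay in the nearest 3 kb and 8 beyond, and no window held more than 3. Pieces can come from the same read, and 16 of the 25 windows held 0, too few to set beside the siRNA profile.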

How the data were processed

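The authors removed adapters and aligned the reads to pROK2, using Bowtie2 and Geneious, then screened what was kept against TAIR10 for off-target origin. The submitters' processing notes name Bowtie2 2.3.0, Bowtie 0.12.7 and FastQC. The deposited table lists each small RNA read with strand, start and end, unnormalized, and both strands are written as the plasmid's plus strand. Counts were made here by counting entries, in Python 3.11.15 with pandas 2.3.3, scipy 1.17.1 and Biopython 1.88. No scaling to library size was made, since the total depth was not given in the sources used here.

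Exact matching kept 81.0% of the 9557 reads placed on the left backbone. Windows of 250 nt and blocks of 1000 nt were counted from the border, and a read went to the window of its midpoint. Named windows are the 3 highest, the 3 lowest, the one beside the border and those with extreme strand or 24 nt shares among windows with 50 or more reads of 21 to 24 nt. Further windows are named as the peak of another measure or where they limit a statement. Named reads are the 10 leading 5′ ends and the leading read of 21, 22 and 24 nt, and every open reading frame of 150 codons is given. The members and these rules were chosen with earlier results of these data known. Intervals of ratios are exact for Poisson counts, and those of differences in shares are Newcombe's. Proteins were aligned with BLOSUM62 and gap penalties of 11 and 1. Reads were searched for exact matches in TAIR10.1, a search that found 200 of 200 genomic and 0 of 200 random sequences. The functions were tested on simulated data. Alternatives were all placed reads, distinct reads, reads at 1 place, reads absent from TAIR10.1, removal of the leading end, reads of 21 to 24 nt and other windows. The alternative with the changed base was added after the data were seen. No vector sequence is printed.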

Additional observations from a re-analysis of the deposited data

Results flagged for a closer look

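A signal lay outside the reads that met the rule. At position 2018 of the left backbone, 732 of 732 placed small RNA reads carried C2018A and so were left out. The most frequent of them, 2003 to 2026 on the plus strand, occurred 572 times, beside 220 copies of the leading read among those that equalled the plasmid. Of the 731 that equalled the plasmid once this base was changed, 725 were on the plus strand and 633 were 24 nt long. The window that holds them had a plus share of 79.4% without and 89.3% with these reads, and a 24 nt share of 57.5% without and 74.3% with them.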

How the results depend on the processing

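The distance trend, the ratios and the plus share of the stretch kept their direction under every alternative run. The surplus of A at the 5′ end of 24 nt reads did not, since with the changed base A was at 27.7% beside 28.0% of the other positions. The partner share lay below the median of the other offsets among copies (7.72% beside 8.37%) and above it among distinct reads (7.66% beside 6.51%). In 40 of 75 combinations of result and alternative the value stayed inside the main interval, or within 0.1 for the Spearman correlation. No left backbone read matched the plasmid at more than 1 place or reached past the stretch, and 1 read matched TAIR10.1, so these alternatives left the left backbone values in place, while removing reads at several places moved the ratio to the T-DNA to 0.46. With all placed reads, density was 1564 reads per kb, the 24 nt share 53.0%, the plus share 58.6%, the share at the 10 leading ends 15.9%, the ratio to the T-DNA 0.48, that to the right backbone 1.94 and the 5′ A share of 24 nt reads 27.8%. With the changed base alone, added after the data were seen, the same values were 1386, 53.5%, 59.2%, 17.4%, 0.48, 1.95 and 27.7%, and the partner share was 7.06%. With identical reads counted once they were 477, 36.9%, 53.9%, 1.71%, 0.53, 1.46 and 35.3%. Without the leading 5′ end, density was 1230, the 24 nt share 48.3%, the plus share 54.1%, the share at the leading ends 10.3%, the ratio to the T-DNA 0.43 and the 5′ A share 34.5%. Reads of 21 to 24 nt alone gave a density of 1159 and 13.2% at the leading ends, the 24 nt share of all lengths was 45.7%, and the 20 leading ends held 17.7%. A partner of any length was found for 21.0%, a share not counted at other offsets. The Spearman correlation of density with distance was 0.55 in 100 nt windows. The cause of these shifts was not tested. No paired analysis was possible because there is 1 library and the results come from no test. Depth limits single windows, the sparsest of which held 90 reads.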
